A study of Homo sapiens with 6 samples.

Results

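AXL, CRIM1, AMOTL1, LRP1 and ITGA6 were followed in LX-2 cells, a human line of hepatic stellate cells, which become the main makers of collagen when the liver scars. AXL is a receptor tyrosine kinase, CRIM1 a transmembrane protein with cysteine-rich repeats that bind growth factors, AMOTL1 a junction scaffold, LRP1 an endocytic receptor and ITGA6 an integrin subunit. They are 5 of the 1699 genes that could be read from non-coding rows on the opposite strand. The cells, with a wild-type genotype per the labels, were exposed for 24 h to FEBJ, an extract of Brucea javanica fruit that holds many compounds, to cynaroside, also called luteolin 7-glucoside, or to DMSO as the control. The 6 libraries, of total RNA, are 2 from each treatment. No dose is labelled, nor whether replicate libraries were made from separate cultures. The errors and p-values thus rest on the spread between these libraries, which may be technical. The fits pool this spread over genes, so an error can be smaller than a gene's own 2 libraries would give. The 5 genes were chosen by their role and by their measured change in FEBJ against DMSO. Their FEBJ values are therefore given as a description with no test. The cynaroside tests of these genes use the same DMSO libraries as that choice and so are not independent of it.

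The Hippo pathway is a kinase cascade that holds the coactivators YAP (gene YAP1) and TAZ (gene WWTR1) out of the nucleus. When it is off, YAP and TAZ bind the TEAD factors and switch on target genes, among which AXL, CRIM1 and AMOTL1 are often counted. Stellate cells on stiff matrix keep YAP in the nucleus, and integrins at focal adhesions are the sensors of that matrix. ITGA6 pairs with an integrin beta chain to bind laminin, and LRP1 takes up proteases, their inhibitors and matrix proteins from outside the cell. AXL is switched on by its ligand GAS6.

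In the deposited count tables, rows for non-coding genes that lie opposite a coding gene often held far more counts than the coding gene's own row. Each of the 5 genes was therefore read from the sum of the non-coding rows whose exons overlap, by 50 bp or more, its exons and no other gene's on the other strand. Strand setting and library kit are not given in the sources used here, so reads of a gene and of its antisense partner cannot be told apart. By GENCODE 29 on GRCh38 all 5 genes lie on the plus strand. AXL (ENSG00000167601) lies at chr19:41219203-41261766 and was read from AC011510.1. CRIM1 (ENSG00000150938) lies at chr2:36355926-36551135 and was read from AC007378.1. AMOTL1 (ENSG00000166025) lies at chr11:94706431-94876753 and was read from AP002383.2. LRP1 (ENSG00000123384) lies at chr12:57128493-57213351 and was read from LRP1-AS. ITGA6 (ENSG00000091409) lies at chr2:172427354-172506282 and was read from 2 rows, AC078883.2 and ITGA6-AS1.

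The windows that tie each row to its gene are short, and they are shown here because the choice of rows rests on them. The counts come from all exonic bases of a row. In every row used except AP002383.2, most of these bases lie opposite introns. AC011510.1 has 286 exonic bases, of which 67 lie opposite an AXL exon and 219 opposite AXL introns. AC007378.1 has 177 of 478 bases opposite a CRIM1 exon and the rest opposite an intron. LRP1-AS has 112 of 879 bases opposite an LRP1 exon. For ITGA6 the overlap was 174 of 558 bases in AC078883.2 and 125 of 1077 bases in ITGA6-AS1. AP002383.2 differs, with 496 of 593 bases opposite the AMOTL1 3′ UTR, 97 bases beyond the gene and none opposite an intron. The coding parts of these windows follow, on the gene's strand, from the GENCODE 29 transcripts. They are AXL exon 4 of 20 (chr19:41221985-41222051), CRIM1 exon 11 of 17 (chr2:36513556-36513732), LRP1 exon 5 of 89 (chr12:57144972-57145083), and exons 1 and 2 of the 26 of ITGA6 (chr2:172427789-172427947 and chr2:172465539-172465663).
AXL: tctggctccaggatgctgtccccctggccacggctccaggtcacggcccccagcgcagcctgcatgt
CRIM1: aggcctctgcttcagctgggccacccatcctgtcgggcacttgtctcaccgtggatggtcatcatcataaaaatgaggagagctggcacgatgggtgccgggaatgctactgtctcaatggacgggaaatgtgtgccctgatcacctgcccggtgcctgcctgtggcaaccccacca
LRP1: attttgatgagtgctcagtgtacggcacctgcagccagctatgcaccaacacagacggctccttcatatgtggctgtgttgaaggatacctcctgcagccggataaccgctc
ITGA6 exon 1: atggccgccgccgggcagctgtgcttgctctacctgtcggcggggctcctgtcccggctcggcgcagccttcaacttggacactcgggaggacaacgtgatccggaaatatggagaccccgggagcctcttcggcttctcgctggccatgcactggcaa
ITGA6 exon 2: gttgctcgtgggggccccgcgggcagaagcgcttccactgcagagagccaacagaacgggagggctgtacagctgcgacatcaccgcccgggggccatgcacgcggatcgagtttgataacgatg
No window is shown for AMOTL1, whose overlap is 3′ UTR. The smallest overlap among the rows used was the 67 bp of AXL, and no row overlapped one of these genes by less than 50 bp. AC078883.1, with 52 bp opposite ITGA6, also overlaps another gene and was not used.

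**Figure D1:**
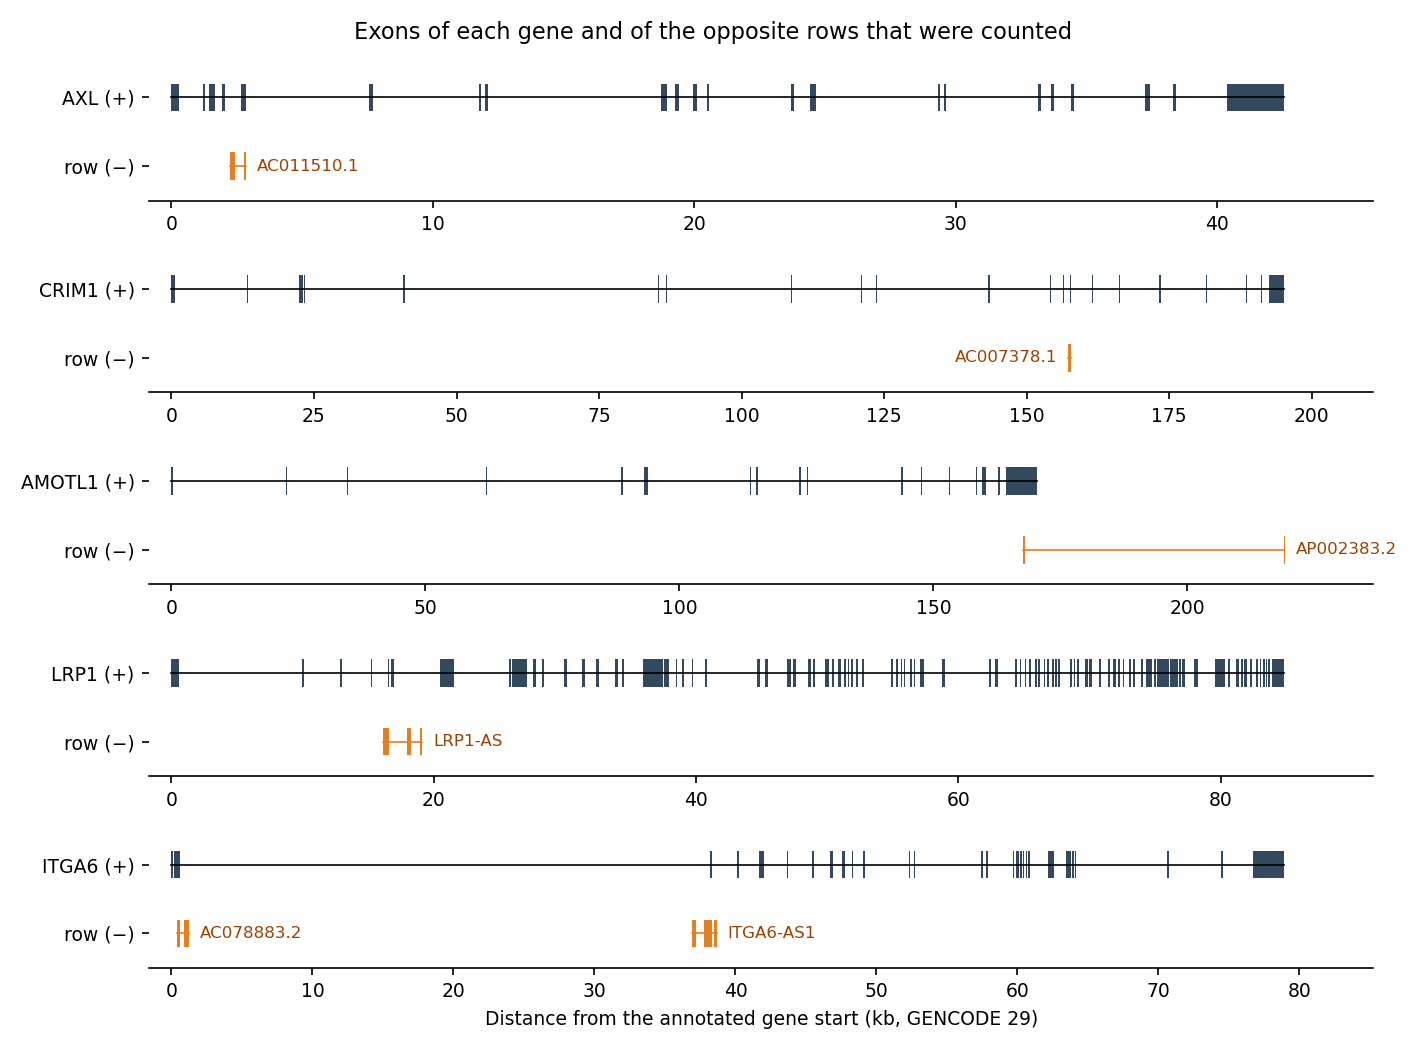
Maps of the exons of each gene (dark blocks, plus strand) and of the opposite rows counted for it (orange blocks, minus strand), to scale within a panel, with the distance from the gene's annotated start in kb on each x axis. The rows of AXL and of ITGA6's AC078883.2 sit near the gene start, whereas AP002383.2 begins in the last exon of AMOTL1 and runs beyond the gene.

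AXL has a further annotated start downstream of this window, so that transcripts from it would not contain the window. RefSeq promoters (250 bases before to 50 after a start, GRCh38.p14) were found for 4 of the 5 genes, 6 starts in all, with none matched for CRIM1. The TEAD motif GGAATG, searched on both strands, was in 1 of these 6, the downstream AXL start, and in 14.033% of all 35116 promoters of the same length. The AP-1 motif TGANTCA, N standing for any base, was in 0 of the 6 and in 7.709% of all. These are letter matches in a short window and show no binding. The promoter with the match (chr19:41226505-41226804, plus strand) is shown because AXL is counted among the TEAD targets, and capitals mark the motif, which reads on the minus strand and lies 212 bases before the start.
AXL downstream promoter: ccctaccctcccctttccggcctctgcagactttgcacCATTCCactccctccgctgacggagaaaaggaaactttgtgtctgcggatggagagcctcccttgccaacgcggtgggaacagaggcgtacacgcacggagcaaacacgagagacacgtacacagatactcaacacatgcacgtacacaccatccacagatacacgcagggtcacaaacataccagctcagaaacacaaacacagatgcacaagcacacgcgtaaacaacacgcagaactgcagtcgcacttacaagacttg

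Gene rows held 1599000 to 4709317 counts per library, or 5.48 to 6.12% of each table's total, and 36.9 to 42.9% of these entered the opposite-strand reading. Of its 1699 genes, 1443 had enough counts to be tested, all 5 described here among them. Stellate markers were present in 13 of 18 own rows, with 766 and 1095 summed counts after FEBJ and 397 and 1049 after cynaroside, against 2593 and 3698 in DMSO. COL1A2, DES, HGF, LRAT and PDGFRA were at 0 in their own rows, so the labelled cell type was only partly visible there. Hepatocyte markers (ALB, HNF4A and TTR at 0) summed to 34 and 43 counts after FEBJ and 0 and 8 after cynaroside, against 2 and 2 in DMSO. Leukocyte markers (PTPRC and CD163 at 0) summed to 26 and 44 counts after FEBJ and 10 and 17 after cynaroside, against 11 and 9 in DMSO. Both sums were thus highest in the FEBJ libraries. Of the hepatocyte markers only SERPINA1 had enough counts for a test in its own row. It had 10.7 and 10.5 CPM (counts scaled to a common library size) after FEBJ. Its other values were 0 and 0 CPM after cynaroside and 0.707 and 0.243 CPM in DMSO. Epithelial markers (EPCAM and KRT19 at 0) summed to 3874 and 5373 counts after FEBJ and 968 and 2675 after cynaroside, against 4578 and 6686 in DMSO. In the opposite-strand reading the 1 epithelial marker tested, the keratin KRT7, had 1033 and 874 CPM after FEBJ and 92.7 and 55.96 CPM after cynaroside, against 167 and 155 CPM in DMSO. It was called higher with FEBJ (log2 fold change 2.57 ± 0.13) and lower with cynaroside (−1.24 ± 0.17) in edgeR. In their own rows 4 epithelial markers were tested, of which 0 rose and 0 fell with FEBJ. Among all 12012 deposited rows tested, 26.0% rose and 24.8% fell. The own-row log2 fold changes with FEBJ were 0.66 ± 0.96 for KRT7, −0.08 ± 0.06 for KRT8, −0.15 ± 0.15 for KRT18 and −2.16 ± 1.18 for SOX9. Endothelial markers (PECAM1, CDH5, VWF and CLEC4G at 0) summed to 14 to 38 counts per library. The part of these markers in the values below was not tested. With bulk RNA, fewer cells that express a gene and less RNA per cell cannot be told apart.

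After FEBJ, 4 of the 5 genes were lower than in DMSO in both libraries and AMOTL1 was higher in both. Of the 1443 genes tested, 34.7% were called lower and 35.8% higher after FEBJ, at an adjusted p at or under 0.05, and nothing is read from the counts of the 5 genes against these shares. After cynaroside AXL rose, CRIM1 fell and the other 3 were not called. The call shares for cynaroside against DMSO were 20.2% higher and 21.6% lower. So 1 rise and 1 fall among 5 genes is near the background.

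**Figure D2:**
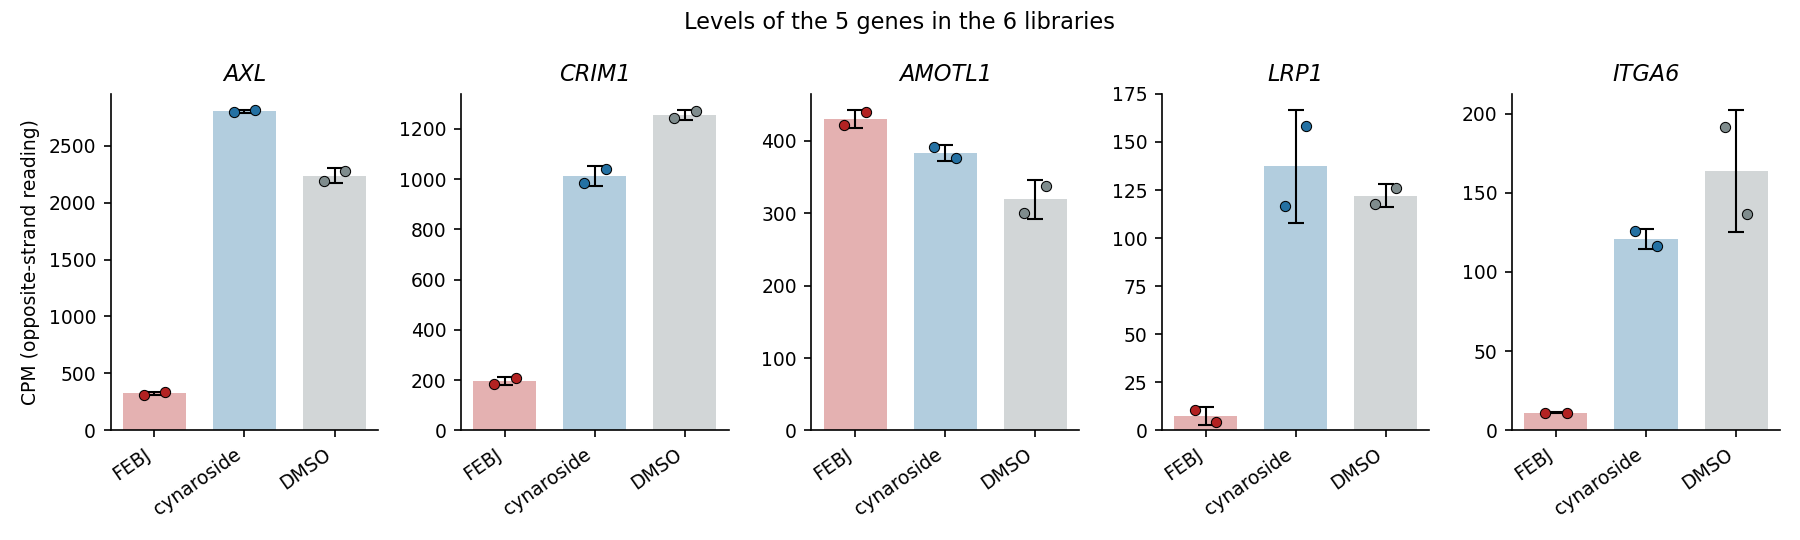
Levels of the 5 genes in CPM (opposite-strand reading, each y axis from 0) after FEBJ, after cynaroside and in DMSO; points are libraries, bars means and whiskers SD (n = 2). FEBJ libraries lie below the others for AXL, CRIM1, LRP1 and ITGA6 and above them for AMOTL1, while cynaroside and DMSO libraries overlap only for LRP1.

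AXL, the receptor of the ligand GAS6 and a regulator of survival and migration, had 314 and 336 CPM after FEBJ and 2792 and 2812 CPM after cynaroside, against 2192 and 2280 CPM in DMSO. The 3 groups did not overlap, with cynaroside at the top and FEBJ at the bottom. The group means were 325 ± 15.4 CPM after FEBJ, 2802 ± 13.8 CPM after cynaroside and 2236 ± 62.7 CPM in DMSO (SD, n = 2 each). FEBJ was thus 6.85-fold lower than DMSO (log2 fold change −2.78 ± 0.07, SE) and 8.58-fold lower than cynaroside (−3.10 ± 0.07). In the ranking of all 1443 genes by FEBJ against DMSO, AXL was the 34th from the lowest. Cynaroside raised AXL 1.25-fold over DMSO (log2 fold change 0.32 ± 0.06, adjusted p = 1.03e-07 by the quasi-likelihood test of edgeR, Benjamini-Hochberg adjusted). With 5527 counts in cynaroside 2 and at least 320 in every library, AXL had the most counts of the 5 genes.

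CRIM1, which tethers bone morphogenetic proteins and other growth factors at the cell surface, had 187 and 207 CPM after FEBJ and 984 and 1042 CPM after cynaroside, against 1242 and 1271 CPM in DMSO. The groups again did not overlap, but here DMSO was the highest. Their means were 197 ± 14.7 CPM after FEBJ, 1013 ± 41.2 CPM after cynaroside and 1257 ± 20.8 CPM in DMSO. FEBJ was 6.34-fold lower than DMSO (log2 fold change −2.66 ± 0.10) and 5.13-fold lower than cynaroside (−2.36 ± 0.10), and CRIM1 was the 40th of 1443 from the lowest. Cynaroside lowered CRIM1 by a log2 fold change of −0.31 ± 0.08 (adjusted p = 0.000953, edgeR's quasi-likelihood test). This fall depended on the scaling, and it became 0.15 (adjusted p = 0.15) with the scaling of all deposited rows, under which the median of all tested genes moved to 0.45 from −0.01.

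AMOTL1, an angiomotin family scaffold that binds YAP and holds it at cell junctions, had 422 and 440 CPM after FEBJ and 392 and 376 CPM after cynaroside, against 300.0 and 338 CPM in DMSO. It was the only one of the 5 genes with FEBJ at the top, and the groups did not overlap. Means were 431 ± 12.8 CPM after FEBJ, 384 ± 11.1 CPM after cynaroside and 319 ± 27.0 CPM in DMSO. The difference between FEBJ and DMSO was 1.35-fold (log2 fold change 0.43 ± 0.13), and AMOTL1 was the 539th of 1443 from the highest. FEBJ and cynaroside differed by 0.17 ± 0.13 on the log2 scale, and by −0.08 with the scaling of all deposited rows. Cynaroside was not called against DMSO (log2 fold change 0.26 ± 0.13, adjusted p = 0.0998, edgeR's quasi-likelihood test), although it was with the scaling of all deposited rows (0.72, adjusted p = 9.97e-07, when the median gene was at 0.45).

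LRP1, a large endocytic receptor of the LDL receptor family, had 10.8 and 4.22 CPM after FEBJ and 117 and 158 CPM after cynaroside, against 118 and 126 CPM in DMSO. These FEBJ levels rest on 11 and 6 counts, so they are the least precise of the set. FEBJ lay far below the other groups, while the cynaroside libraries fell on either side of the DMSO libraries. Group means were 7.51 ± 4.66 CPM after FEBJ, 137 ± 29.4 CPM after cynaroside and 122 ± 5.83 CPM in DMSO. LRP1 was 17.2-fold lower after FEBJ than in DMSO (log2 fold change −4.10 ± 0.34), the 4th of 1443 from the lowest. Without FEBJ 1 the value was −4.84 and without FEBJ 2 it was −3.49. Against cynaroside the log2 fold change was −4.30 ± 0.33, the lowest of all 1443 genes, and it was −5.04 without FEBJ 1 and −3.69 without FEBJ 2. Cynaroside against DMSO gave 0.20 ± 0.22 (95% interval −0.24 to 0.64, adjusted p = 0.491, edgeR's quasi-likelihood test). That value was −0.07 without cynaroside 2, and 0.67 (adjusted p = 0.00964) with the scaling of all deposited rows.

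ITGA6, the integrin alpha 6 chain, had 10.8 and 11.3 CPM after FEBJ and 126 and 117 CPM after cynaroside, against 191 and 137 CPM in DMSO. The groups did not overlap, and DMSO 1 stood well above DMSO 2. Means were 11.03 ± 0.315 CPM after FEBJ, 121 ± 6.41 CPM after cynaroside and 164 ± 38.6 CPM in DMSO. FEBJ was 14.6-fold lower than DMSO (log2 fold change −3.87 ± 0.30), the 7th of 1443 from the lowest, from 11 and 16 counts. Cynaroside against DMSO was not called (log2 fold change −0.44 ± 0.22, 95% interval −0.86 to −0.01, adjusted p = 0.0936, edgeR's quasi-likelihood test), and it moved to 0.03 (adjusted p = 0.932) with the scaling of all deposited rows.

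ITGA6 is the one of the 5 read from separate rows, near different exons, and they can be set side by side. AC078883.2, opposite exon 1, had 5.90 and 7.03 CPM after FEBJ and 59.8 and 60.5 CPM after cynaroside, against 117 and 72.5 CPM in DMSO. ITGA6-AS1, opposite exon 2, had 4.91 and 4.22 CPM after FEBJ and 65.8 and 56.0 CPM after cynaroside, against 74.2 and 64.2 CPM in DMSO. Both rows were low after FEBJ, at log2 ratios of group means over DMSO of −3.87 and −3.92. ITGA6 was chosen by the change of their sum, so low values in both were in part set by that choice. The cynaroside ratios were −0.66 and −0.19, and the spread of DMSO came from AC078883.2.

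The genes' own rows, on the coding strand, gave a second and much thinner reading. After FEBJ these rows held 4.26% of the counts of the opposite rows for AXL, 7.84% for CRIM1 and 0.759% for AMOTL1, but 124% for LRP1 and 144% for ITGA6. After cynaroside the share was 1.41% for AXL, 3.66% for CRIM1, 2.997% for AMOTL1, 10.5% for LRP1 and 40.6% for ITGA6. In DMSO it was 10.97% for AXL, 11.2% for CRIM1, 12.7% for AMOTL1, 93.3% for LRP1 and 28.6% for ITGA6. The median over 962 other genes of the reading, with at least 600 counts in all, also differed by group, at 3.51 and 3.34% after FEBJ and 1.76 and 1.86% after cynaroside, against 5.89 and 6.04% in DMSO. Its part in the own-row differences below was not tested.

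**Figure D3:**
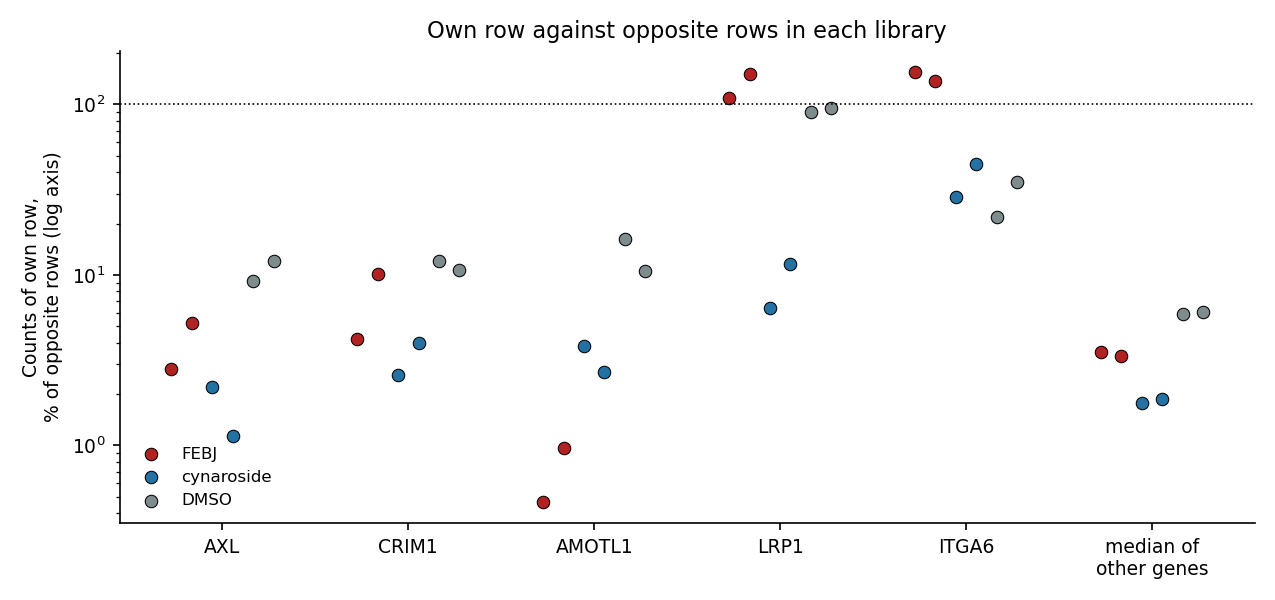
Counts of each gene's own row as a percent of the counts of its opposite rows in every library (log axis; the dotted line marks equal counts), with the median of 962 other genes at the right. DMSO libraries lie above cynaroside libraries for AXL, CRIM1, AMOTL1, LRP1 and the median gene, whereas for ITGA6 they overlap.

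The own row of AXL had 3.58 and 7.09 CPM after FEBJ and 28.1 and 15.9 CPM after cynaroside, against 70.3 and 96.3 CPM in DMSO. DMSO was thus the highest here, and AXL after cynaroside moved in opposite directions in its 2 readings. Its own row fell (log2 fold change −2.02 ± 0.30, adjusted p = 2.9e-06, edgeR's quasi-likelihood test). CRIM1 had 3.18 and 8.51 CPM after FEBJ and 11.7 and 20.7 CPM after cynaroside, against 52.0 and 47.4 CPM in DMSO. It fell with cynaroside in this reading as well (−1.54 ± 0.35, adjusted p = 0.000772, edgeR). LRP1 had 4.77 and 2.55 CPM after FEBJ and 3.43 and 9.07 CPM after cynaroside, against 37.1 and 41.8 CPM in DMSO. Here both cynaroside libraries were far below the DMSO ones and LRP1 fell (−2.49 ± 0.43, adjusted p = 3.05e-05, edgeR), in contrast to its opposite row. Without cynaroside 2 the log2 fold change of LRP1 was −3.51.

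AMOTL1's own row had 0.796 and 1.702 CPM after FEBJ and 6.86 and 5.04 CPM after cynaroside, against 17.0 and 12.4 CPM in DMSO. FEBJ was therefore the lowest group in this row (log2 fold change −3.45 ± 0.70, from 2 and 6 counts) and the highest in the opposite row. The cynaroside value was not called (−1.33 ± 0.60, adjusted p = 0.0709, edgeR), but it was in a fit of the 4 cynaroside and DMSO libraries alone (−1.50, adjusted p = 0.0209). ITGA6's own row had 6.76 and 6.24 CPM after FEBJ and 16.5 and 25.96 CPM after cynaroside, against 14.5 and 16.8 CPM in DMSO. Cynaroside and DMSO libraries overlapped (0.47 ± 0.41, adjusted p = 0.349, edgeR), and FEBJ was lower by a log2 fold change of −1.27 ± 0.44. The FEBJ values against DMSO in the other own rows were −3.90 ± 0.34 for AXL, −3.01 ± 0.39 for CRIM1 and −3.46 ± 0.46 for LRP1. Without FEBJ 2 they were −4.56 for AXL and −3.97 for CRIM1, and −4.15 for AMOTL1. So AXL, CRIM1, LRP1 and ITGA6 were lower after FEBJ in both readings, in the comparison by which they were chosen. ITGA6 differed in size between the readings, at −3.87 in the opposite rows and −1.27 in its own row. Of the 12012 deposited rows tested, 24.3% rose and 21.1% fell with cynaroside, against which 3 of the 5 own rows fell. The falls with cynaroside numbered 2537, and 1618 without DMSO 1 or 1543 without DMSO 2. With FEBJ 26.0% rose and 24.8% fell.

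**Figure D4:**
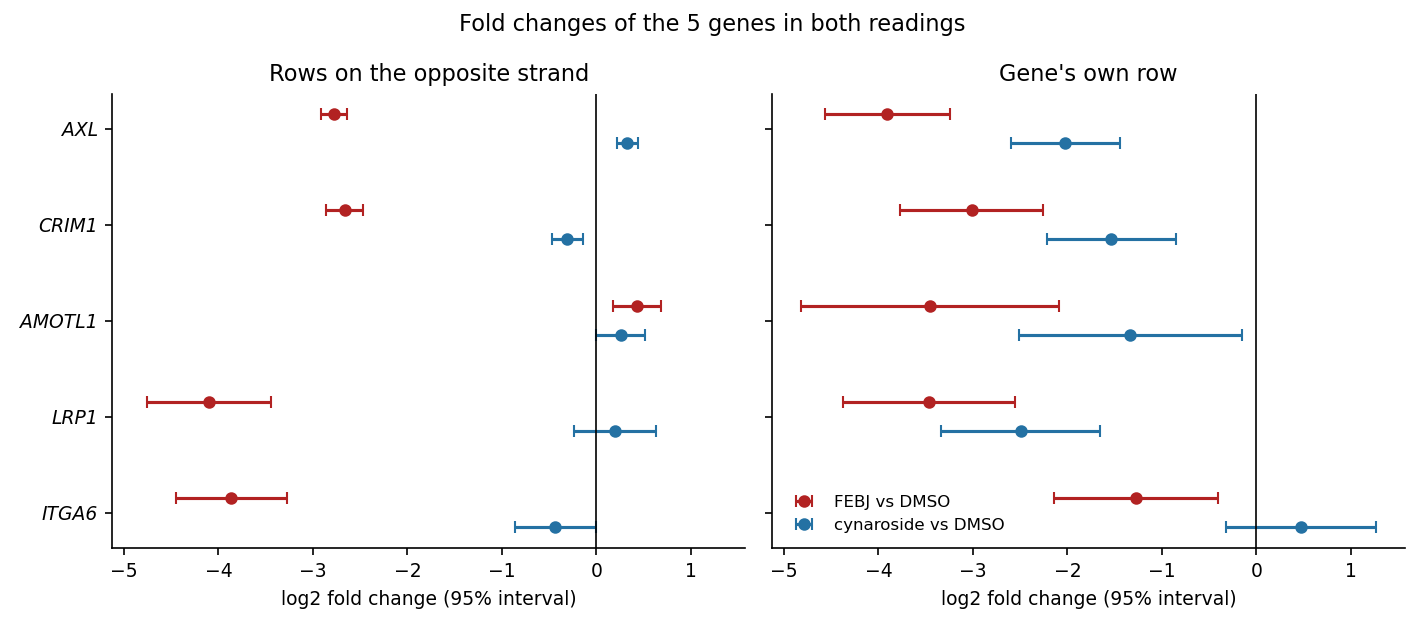
Log2 fold changes of the 5 genes with 95% intervals, from the opposite rows (left) and from the own row (right), for FEBJ against DMSO (red) and cynaroside against DMSO (blue). The red intervals are no test, since the genes were chosen by their change in that comparison. AMOTL1 after FEBJ and AXL after cynaroside lie right of 0 in the left panel and left of 0 in the right panel, as do, without a call in the left panel, AMOTL1 and LRP1 after cynaroside.

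To place the 5 profiles, each was compared over the 6 libraries with 1437 other genes, as the root mean square difference of centred log2(CPM + 1) values, 0 meaning the same shape. AXL and CRIM1 were the most alike pair of the 5, at 0.33. AXL and ITGA6 differed by 0.45, CRIM1 and ITGA6 by 0.52, LRP1 and ITGA6 by 0.54, and AMOTL1 by 1.35 to 2.09 from each of the other 4. Among the profiles closest to AXL were EDEM1, a factor of protein quality control in the endoplasmic reticulum, and CALM3, a calmodulin gene, at 0.14 each. EDEM1 averaged 52.6 CPM after FEBJ and 481 CPM after cynaroside, against 312 CPM in DMSO. CRIM1 was closest to STEAP3, an iron reductase, at 0.13, then TSC22D1 at 0.16 and the adhesion protein NECTIN2 at 0.17. AMOTL1 was closest to the RNA helicase DDX52 at 0.04, then STRN4 at 0.05 and FEM1A at 0.08. ITGA6 was closest to the kinase CHUK at 0.18, the matrix protein SPARC at 0.21 and the integrin ligand EDIL3 at 0.24. SPARC averaged 34.7 CPM after FEBJ and 428 CPM after cynaroside, against 592 CPM in DMSO. LRP1 had no close match, with VPS13A at 0.41, the collagen crosslinking enzyme LOXL2 at 0.41 and CACNG4 at 0.49. The libraries are shared by all these profiles, and flat profiles such as AMOTL1's give small differences.

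Around the 5 genes, 10 lists of pathway genes held 249 other names, of which 32 could be tested in the opposite-strand reading. With FEBJ 5 of the 32 rose and 18 fell, at a median log2 fold change of −0.57 against 0.05 over all 1443 genes. Of the 1443 genes, 35.8% rose and 34.7% fell. The listed genes that rose include ITGA10, which passed the count filter through treated libraries alone. In DESeq2 3 listed genes rose and 15 fell with FEBJ, and with an overlap of 200 bp 3 rose and 18 fell. With cynaroside 1 rose and 11 fell, at a median of −0.22 against −0.01, where 20.2% of all genes rose and 21.6% fell. These splits depended on the scaling, since with that of all deposited rows 10 rose and 15 fell with FEBJ and 12 rose and 4 fell with cynaroside. Without FEBJ 1 the rises with FEBJ numbered 2, without DMSO 1 they numbered 3, and without DMSO 2 the rises with cynaroside numbered 0. That scaling, of all deposited rows, moved the median of all genes to 0.27 for FEBJ and to 0.45 for cynaroside, and the calls of all genes for cynaroside to 739 higher and 100 lower from 291 higher and 311 lower.

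AXL's ligand GAS6 was the 1 tested gene of its 4-gene list. It had 175 and 223 CPM after FEBJ and 1039 and 1067 CPM after cynaroside, against 879 and 963 CPM in DMSO. GAS6 was therefore 4.58-fold lower after FEBJ (log2 fold change −2.20 ± 0.10, adjusted p = 1.06e-93, edgeR's quasi-likelihood test), low in the same libraries as its receptor, and it was not called with cynaroside (0.19 ± 0.09, adjusted p = 0.0665). EGFR, another receptor kinase, was 1 of 2 tested of 32, and it fell 5.03-fold with FEBJ (−2.33 ± 0.25, adjusted p = 2.96e-20, edgeR). Cynaroside gave −0.22 (adjusted p = 0.417) for EGFR. The second, FGFR1, was not called in either. Among all 1443 genes, 34.7% fell with FEBJ and 21.6% with cynaroside.

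Of the YAP and TAZ target list, 3 of 26 genes besides AXL, CRIM1 and AMOTL1 were tested. Among all 1443 genes, 34.7% fell with FEBJ and 21.6% with cynaroside. Both treatments lowered ARHGEF17, a guanine nucleotide exchange factor, which had 174 and 94.95 CPM after FEBJ and 438 and 415 CPM after cynaroside, against 602 and 598 CPM in DMSO. Its log2 fold changes were −2.20 ± 0.14 for FEBJ (adjusted p = 2.06e-53) and −0.50 ± 0.12 for cynaroside (adjusted p = 0.000271, edgeR), the second lost without cynaroside 2 (adjusted p = 0.0709), in DESeq2 (0.275) and with the scaling of all deposited rows (−0.04, adjusted p = 0.838). CDC42EP3, a CDC42 effector, had 879 and 882 CPM after FEBJ and 475 and 451 CPM after cynaroside, against 1075 and 964 CPM in DMSO. It fell with cynaroside (−1.14 ± 0.09, adjusted p = 1.48e-33, edgeR). Its FEBJ value of −0.21 ± 0.09 (adjusted p = 0.023, edgeR) was lost without FEBJ 1, FEBJ 2 or DMSO 1 and in DESeq2 (0.07), and became 0.01 with the scaling of all deposited rows. PPP1R3B was not called.

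The Hippo components tested were 5 of 40, of which 2 rose and 2 fell with FEBJ and 1 rose and 2 fell with cynaroside. Over all genes 35.8% rose and 34.7% fell with FEBJ, and 20.2% rose and 21.6% fell with cynaroside. YAP1 had 694 and 743 CPM after FEBJ and 1870 and 1819 CPM after cynaroside, against 2123 and 2149 CPM in DMSO. The fall was −1.57 ± 0.06 for FEBJ (adjusted p = 2.64e-119) and −0.21 ± 0.06 for cynaroside (adjusted p = 0.00162, edgeR), the cynaroside call turning to a rise with the scaling of all deposited rows (0.25, adjusted p = 0.00352). WWTR1, the gene of TAZ, had 295 and 264 CPM after FEBJ and 187 and 248 CPM after cynaroside, against 195 and 207 CPM in DMSO. It rose with FEBJ (0.47 ± 0.15, adjusted p = 0.00417, edgeR), a call lost without FEBJ 1 (0.0735) or DMSO 1 (0.0591). RASSF1, a scaffold of the Hippo kinases, rose with FEBJ (1.05 ± 0.23, adjusted p = 8.34e-06) and with cynaroside (0.71 ± 0.23, adjusted p = 0.00659, edgeR; 0.0531 without DMSO 2). DCHS1, a large cadherin upstream of the pathway, fell with FEBJ (−1.11 ± 0.28, adjusted p = 0.000116) and with cynaroside (−0.87 ± 0.27, adjusted p = 0.00442, edgeR; 0.0864 without cynaroside 1, 0.132 without DMSO 1, and −0.41 with 0.214 under the scaling of all deposited rows). The kinase gene LATS1 was not called.

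ITGA6 was lower after FEBJ while other integrin chains went both ways, with 3 of 24 tested. Over all genes 35.8% rose and 34.7% fell with FEBJ. ITGAV, the alpha chain of vitronectin receptors, had 29.5 and 23.9 CPM after FEBJ and 123 and 125 CPM after cynaroside, against 112 and 179 CPM in DMSO, a fall with FEBJ of −2.48 ± 0.26 (adjusted p = 1.08e-20, edgeR). ITGA1, a collagen receptor chain, had 92.4 and 91.4 CPM after FEBJ and 11.96 and 20.3 CPM after cynaroside, against 35.6 and 22.3 CPM in DMSO. ITGA1 rose with FEBJ (1.69 ± 0.34, adjusted p = 1.46e-06, edgeR). ITGA10 was called higher from 35 counts after FEBJ against 1 in DMSO, a ratio of 34.7 (95% counting interval 5.83 to 1408). The call was lost without FEBJ 1 and in DESeq2 (adjusted p = 0.0914). ITGA10 passed the count filter through treated libraries alone, so its direction against DMSO was in part set by the filter. In a fit of the 4 FEBJ and DMSO libraries alone it had too few counts to be tested. None of the 3 was called with cynaroside, with which 20.2% of all genes rose and 21.6% fell. Of 20 laminins and laminin receptors, 2 were tested, and the laminin chain LAMA4 fell with FEBJ (−1.97 ± 0.60, adjusted p = 0.00169, edgeR; 0.0652 without DMSO 2).

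Focal adhesion genes, which link integrins such as ITGA6 to actin, had 9 of 38 tested, of which 1 rose and 6 fell with FEBJ and 0 rose and 5 fell with cynaroside. Over all genes 34.7% fell with FEBJ and 21.6% with cynaroside. PXN, the adhesion adaptor paxillin, had 3282 and 3316 CPM after FEBJ and 9336 and 8885 CPM after cynaroside, against 11056 and 11065 CPM in DMSO. PXN fell with FEBJ (−1.75 ± 0.03) and with cynaroside (−0.28 ± 0.03, adjusted p = 1.49e-17, edgeR), the cynaroside call turning to a rise with the scaling of all deposited rows (0.17, adjusted p = 0.00314). LASP1, an actin-binding protein, had 1599 and 1709 CPM after FEBJ and 2593 and 2567 CPM after cynaroside, against 3413 and 3315 CPM in DMSO. LASP1 fell with FEBJ (−1.02 ± 0.05, adjusted p = 6.91e-84, edgeR). TES was the gene that rose with FEBJ (1.32 ± 0.53, adjusted p = 0.0195, edgeR), a call lost without FEBJ 1 (0.268) or DMSO 1 (0.274) and in DESeq2 (0.0713). Without DMSO 2 its log2 fold change was 2.20.

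Of LRP1's relatives, 2 of 21 were tested. LRP8, a lipoprotein receptor for reelin, fell with FEBJ (−1.57 ± 0.14, adjusted p = 7.93e-28, edgeR) but was not called with cynaroside (0.22, adjusted p = 0.152), the same calls as GAS6. Both tested LRP1 ligands of 21 fell with FEBJ. Over all genes 34.7% fell with FEBJ and 21.6% with cynaroside. THBS1, the matrix protein thrombospondin, had 22.6 and 20.4 CPM after FEBJ and 70.3 and 71.7 CPM after cynaroside, against 183 and 182 CPM in DMSO. THBS1 fell 8.51-fold with FEBJ (−3.09 ± 0.27, adjusted p = 5.83e-29) and also with cynaroside (−1.36 ± 0.23, adjusted p = 4.76e-08, edgeR), where LRP1's opposite row was not called. CALR, a chaperone that binds LRP1 at the cell surface, fell with FEBJ (−0.81 ± 0.06, adjusted p = 8.35e-46, edgeR). Of 29 genes of BMP and VEGF signalling around CRIM1, 3 were tested, and GREM1, a secreted BMP antagonist, fell with FEBJ (−1.93 ± 0.09, adjusted p = 5.97e-100, edgeR). Its cynaroside value of −0.27 ± 0.08 (adjusted p = 0.00269, edgeR) was lost without cynaroside 1 (0.167) or DMSO 2 (0.0774) and was 0.19 with the scaling of all deposited rows.

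**Figure D5:**
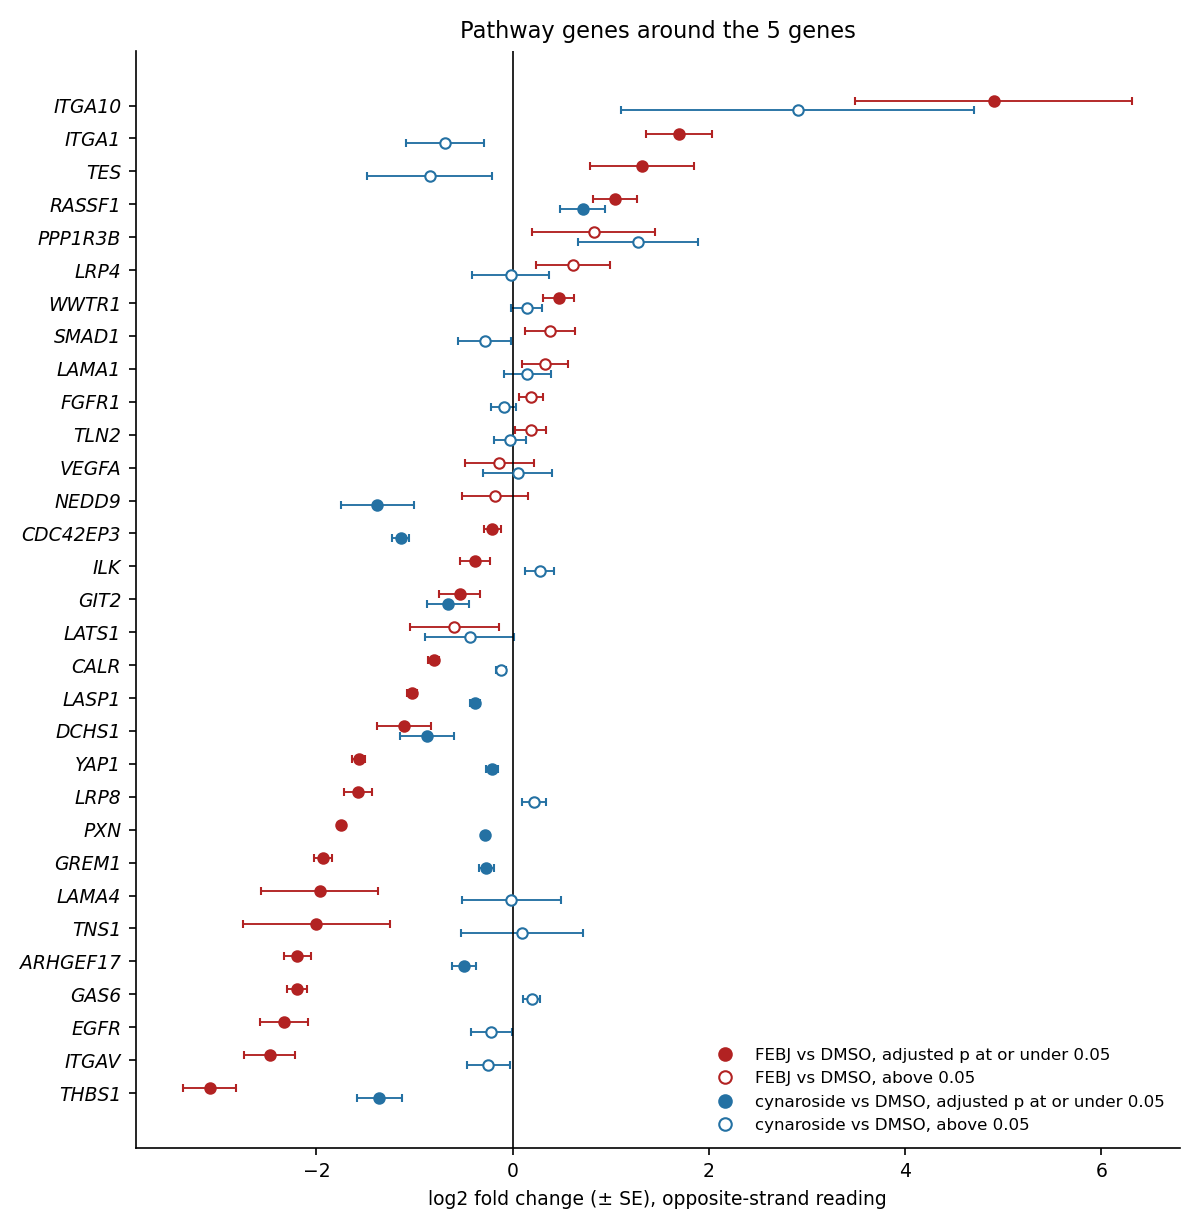
Log2 fold changes (± SE) of 31 of the tested pathway genes other than the 5 described, FEBJ against DMSO in red and cynaroside against DMSO in blue, with filled points at an adjusted p at or under 0.05. Of the red points 5 are filled right of 0 and 17 left of 0, and of the blue points 1 right and 10 left. The filled red points right of 0 include ITGA10, which passed the count filter through treated libraries alone.

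In the deposited rows more of the same lists could be tested. Of YAP and TAZ targets besides AXL, CRIM1 and AMOTL1, 20 were tested, of which 2 rose and 10 fell with FEBJ and 0 rose and 10 fell with cynaroside. Focal adhesion genes gave 2 rises and 19 falls of 33 with FEBJ and 0 rises and 18 falls with cynaroside. Integrin chains other than ITGA6 gave 5 rises and 4 falls of 13 with FEBJ and 3 rises and 3 falls with cynaroside. Over all 12012 rows 26.0% rose and 24.8% fell with FEBJ, and 24.3% rose and 21.1% fell with cynaroside. The median share of own-row counts over 962 other genes was lower in both treatments than in DMSO. Among the 5 genes the pooled share was instead higher than in DMSO for LRP1 after FEBJ and for ITGA6 after both treatments. The part of this share in the falls was not tested.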

How the data were processed

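RNA of 6 LX-2 libraries, 2 per group, was sequenced, and the authors deposited raw gene counts for each. Per the submitters' processing notes, CASAVA 1.7, HISAT2, HTSeq 0.12.4 and DESeq2 1.38.0 were used with hg19. The strand setting, kit and annotation release are not given in the sources used here. A summary row of reads outside all features held 87.4 to 88.3% of each table and was left out. Overlaps came from GENCODE 29 (GRCh38), joined by Ensembl identifier (58261 of 62754 rows), and the builds were not reconciled.

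For other genes a row entered only with at least as many counts as the own row, which gave 1828 rows for 1699 genes. The opposite-strand reading and the deposited rows were each fitted in edgeR 4.0.16 (R 4.3.3) with filterByExpr, TMM and 3 group means on all 6 libraries (3 residual degrees of freedom), with quasi-likelihood tests and Benjamini-Hochberg adjustment over all features, and were tested on simulated data. CPM uses TMM library sizes. The 10 pathway and 5 marker lists, the 5 genes and the tests were chosen with earlier results of these data known. Named pathway genes are up to 2 rising and 2 falling per list and comparison with the smallest adjusted p. Likeness used genes with a mean of at least 5 CPM. PPP1R3B, FGFR1 and LATS1 were named after their values were seen. Alternatives were RLE factors, no filter, DESeq2 1.42.0, a replicate block, each library left out, the 4 libraries compared alone, overlaps of 1 and 200 bp, rows with fewer counts, and the scaling of all deposited rows. The interval of a count ratio covers counting error only. Differences between replicates 1 and 2 had correlations between groups of 0.12 (FEBJ and cynaroside), −0.03 and −0.06 over 1146 genes. These cannot show whether same-numbered libraries shared a batch. Replicates differed by more than sampling noise (mean chi-square 3.04 to 3.20 per row). Results for some genes that the rule would name are not reported here.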

Additional observations from a re-analysis of the deposited data

How the results depend on the processing

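Of 931 values recomputed under the alternatives for 67 results, 880 kept their direction and their side of the threshold, or stayed within 1.5 times for counts. The scaling of all deposited rows changed most. With it, cynaroside against DMSO gave 739 rises and 100 falls over all genes, and the log2 fold changes were 0.15 for CRIM1, 0.72 for AMOTL1, 0.67 for LRP1 and 0.0263 for ITGA6. YAP1 (0.25), PXN (0.17) and GREM1 (0.19) then reversed for cynaroside, CDC42EP3 (0.00707) for FEBJ against DMSO, and AMOTL1 (−0.0754) for FEBJ against cynaroside. A change of scaling shifts the log2 fold changes of all genes of a comparison together. Which scaling is nearer to the true levels was not tested. LRP1 for cynaroside ranged from −0.0682 (without cynaroside 2) to 0.40 when a library was left out, and the falls with cynaroside among deposited rows from 1543 to 2649, with 1618 without DMSO 1 and 1543 without DMSO 2. The lone sample of a group was then assumed to vary like the others, and the cause was not tested. With FEBJ against DMSO, leaving out a library gave −2.83 to −2.75 for AXL, −2.75 to −2.61 for CRIM1, 0.34 to 0.51 for AMOTL1, −4.84 to −3.49 for LRP1 and −4.11 to −3.63 for ITGA6. For the pathway genes, 2 to 5 rises with FEBJ and 0 to 2 with cynaroside were called when a library was left out. In its own row, AMOTL1 was also called with RLE factors (−1.48, adjusted p = 0.0442 in edgeR).

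The labels do not say whether same-numbered libraries belong together. With a replicate block the cynaroside calls were 279 rises and 307 falls, with 0.32 for AXL, −0.31 for CRIM1, 0.25 for AMOTL1, 0.19 for LRP1 and −0.41 for ITGA6. The block changed the call of none of the genes named. An overlap of 200 bp left a row for AMOTL1 but for none of the other 4 genes. Depth limits LRP1 and ITGA6 after FEBJ, with 6 to 16 counts per library.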

Other observations

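Other rows that touch these genes but did not meet the rule gave the following values. STAT6, a coding gene with 59 bp opposite LRP1 that also overlaps another gene, had 19.7 and 21.8 CPM after FEBJ and 88.2 and 74.8 CPM after cynaroside, against 113 and 109 CPM in DMSO. AC078883.1, which has 52 bp opposite ITGA6 and also overlaps another gene, had 223 and 204 CPM after FEBJ and 202 and 135 CPM after cynaroside, against 241 and 220 CPM in DMSO. It was not low after FEBJ, unlike the rows from which ITGA6 was read.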
